A study of Rattus norvegicus with 12 samples.

Results

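The 10 genes described here carry out or drive the synthesis of fatty acids in the liver. They were chosen by name from the table of the whole series, which lists 33744 genes: Srebf1 and Thrsp as regulators, Acly and Acss2 as sources of acetyl-CoA, Me1 as a source of NADPH, Acaca, Acacb and Fasn as the enzymes that build the chain, Elovl6 as an elongase and Pnpla3 as a lipase of the lipid droplet. All 10 were in the table, and 8 passed the filter on low counts. RNA was sequenced from 12 livers of male Sprague Dawley rats aged 6 to 8 weeks, 3 livers per group and 1 library per liver. Every liver had 30 min of warm ischemia after cardiac arrest, so that the series holds no liver without ischemia. The WI30min livers had nothing further, and the SCS4h livers had 4 h of static cold storage. The HMP1h livers and the HOPE1h livers had 3 h of cold storage and then 1 h of machine perfusion through the portal vein at 4 °C. The fluid pumped through HOPE1h livers carried oxygen at a partial pressure of 60 to 80 kPa, and that of HMP1h livers was not oxygenated. The rats were given chow and water under a cycle of 12 h of light. The sources used here give neither the time of day at which each liver was taken nor whether the rats were fasted.

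Hepatocytes turn surplus carbohydrate into fat by de novo lipogenesis. Citrate exported from mitochondria is cleaved to acetyl-CoA, acetyl-CoA is carboxylated to malonyl-CoA, and fatty acid synthase joins these units into palmitate at the cost of NADPH. The pathway is controlled largely at transcription: feeding and insulin raise it through the sterol response factor SREBP-1c, a product of Srebf1, and glucose raises it through another factor, ChREBP, while fasting lowers it. Malonyl-CoA also blocks the entry of fatty acids into mitochondria, which links synthesis with oxidation.

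Total counts were 15262961 to 18343167 per liver. The labelled tissue was borne out by its markers, since 10 hepatocyte markers (Alb, Apoa1 and others) summed to 159000 to 216000 CPM in every liver. CPM are counts scaled to a common library total. The CPM of single genes also use TMM factors, whereas the sums of markers do not. HMP1h liver 1 stood apart: 18.7% of its counts came from mitochondrial genes, against 4.79% to 10.2% in the other livers, and its hepatocyte marker sum was the lowest of the 12. Markers of Kupffer cells and macrophages summed to 1700 CPM in HMP1h liver 1 and 1150 CPM in HOPE1h liver 3, against 464 to 752 CPM in the other 10 livers. Sinusoidal endothelial markers gave 1210 and 1380 CPM in these livers against 523 to 833 CPM, stellate cell markers 1860 and 1250 CPM against 521 to 1010 CPM, and bile duct markers 46.6 and 51.6 CPM against 29.4 to 40.4 CPM. The adipocyte markers Adipoq, Plin1, Lep and Retn had 0 counts in every liver, and the 8 adipocyte markers summed to 18.8 to 54.1 CPM, highest in HMP1h liver 1. Fat tissue is another site of these genes. These are pieces of whole liver, in which fewer hepatocytes and less of a transcript per hepatocyte cannot be told apart.

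Compared per length, Thrsp had the highest mean of the genes. The authors' FPKM (counts scaled by gene length and library total) averaged 97.9 ± 108 for Thrsp over the 12 livers (SD, n = 12), 14.4 ± 6.86 for Srebf1, 13.1 ± 2.30 for Acly, 11.7 ± 3.97 for Me1 and 8.0 ± 1.90 for Acss2. The carboxylases Acaca and Acacb were at 3.76 ± 0.907 and 3.65 ± 1.00 FPKM, and Fasn was at 1.75 ± 0.581 FPKM. In this order Srebf1, Acly and Me1 lay within their spread of each other, as did Acaca and Acacb. Acss2 lay within the SD of Me1 and of Srebf1. Thrsp did not lead in every liver: in WI30min liver 1 it was at 7.49 FPKM, below Me1 at 22.1 and Acly at 14.5 FPKM. Elovl6, which lengthens palmitate to stearate, had 3 counts in all, 1 each in WI30min liver 1, SCS4h liver 1 and HMP1h liver 1. Elovl6 is known as a gene of the normal liver, and another gene model annotated as like it, LOC102549542, had 7 counts. Whether the Rnor_6.0 models cover the transcript made in liver was not tested, so that these counts do not show its absence. Pnpla3, whose mRNA is known to follow feeding, had 6 counts in all: 3 in HMP1h liver 1, 1 in HMP1h liver 2 and 1 each in HOPE1h livers 2 and 3. A count of 0 in a library allowed a level of up to 0.164 to 0.197 CPM (3 counts, counting error only, without TMM factors). The counts of Elovl6 and Pnpla3 are too few to compare groups, so these genes were not tested.

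**Figure D1:**
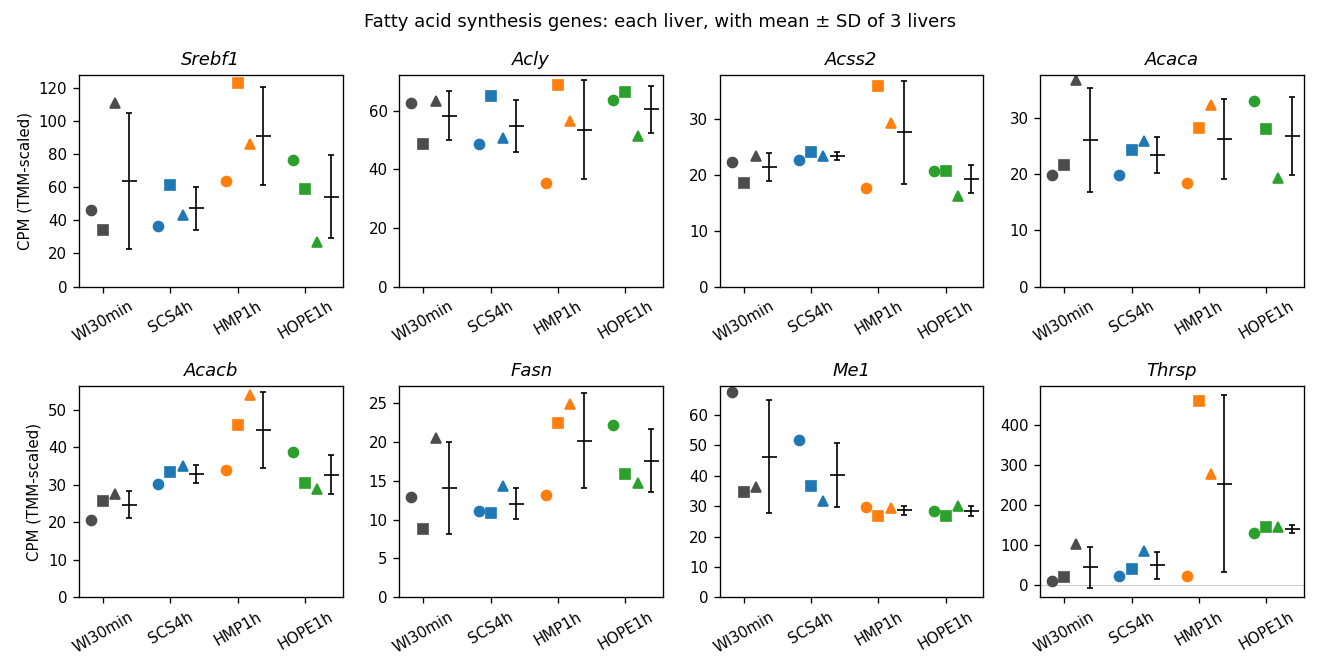
Level in CPM (vertical axes, linear) of the 8 genes that passed the filter, by group (horizontal axes), with livers 1, 2 and 3 as circle, square and triangle and the mean ± SD of 3 livers in black. Thrsp is at 20.6, 460 and 277 CPM in the HMP1h livers and at 128 to 145 CPM in the HOPE1h livers, and Me1 is lower in every perfused liver than in any unperfused one.

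Srebf1 (ENSRNOG00000003463, Rnor_6.0 chromosome 10, 46570996 to 46593009, minus strand) encodes SREBP-1a and SREBP-1c, the latter the main lipogenic factor of the liver. It was at 46.4, 34.4 and 111 CPM in the WI30min livers, 36.6, 61.5 and 43.5 CPM in SCS4h, 64.1, 123 and 85.9 CPM in HMP1h, and 76.5, 59.2 and 27.1 CPM in HOPE1h. Each HMP1h liver was above each SCS4h liver, while every other pair of groups overlapped, and both the highest and the lowest of the 12 livers were perfused ones. The log2 fold change of HMP1h over SCS4h was 0.95 ± 0.452 (SE) and did not pass the test (edgeR adjusted p = 0.366). WI30min liver 3 alone set the sign against SCS4h: SCS4h was lower by a log2 fold change of -0.44 ± 0.450 with it and higher by 0.22 without it. Srebf1 overlaps Rai1 on the opposite strand, and Rai1 held 2002 counts, 15.6% of those of Srebf1. The sources used here do not say whether counting used strand.

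Thrsp (ENSRNOG00000012404, chromosome 1, 162381253 to 162385575, minus strand), known as Spot 14, is induced by thyroid hormone and carbohydrate and promotes lipogenesis. Its levels were 9.19, 19.0 and 102 CPM in WI30min, 21.2, 38.5 and 84.6 CPM in SCS4h, 20.6, 460 and 277 CPM in HMP1h, and 128, 144 and 145 CPM in HOPE1h. HMP1h thus held both the highest liver of the series and one that lay below all but 2 others, and the HOPE1h livers lay above all 6 unperfused livers with an SD of 9.45 CPM. The mean was 253 ± 221 CPM in HMP1h and 139 ± 9.45 CPM in HOPE1h, against 43.4 ± 51.1 CPM in WI30min and 48.1 ± 32.8 CPM in SCS4h (SD, n = 3). The log2 fold change over WI30min was 2.54 ± 0.997 for HMP1h (edgeR adjusted p = 0.305) and 1.68 ± 0.970 for HOPE1h (0.645), so that differences of about this size were not separated from the spread between livers. For HMP1h over WI30min, Thrsp gave 3.10 without HMP1h liver 1 (adjusted p = 0.145), 1.77 without HMP1h liver 2 (0.427) and 4.16 without WI30min liver 3 (0.176).

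Thrsp and Srebf1 had the widest spread over the 12 livers, so the 250 bases before their RefSeq starts are shown (build GRCr8, not the build of the counts, so that its coordinates differ from those above). Capitals mark CCAAT and GGGCGG on either strand, so that ATTGG and CCGCCC are their reverse complements. Srebf1 has 2 RefSeq starts, numbered here by coordinate, so that on the minus strand the second start lies upstream of the first start. The counts are per gene and do not separate the starts, and whether the counted gene model covers both was not checked.
Thrsp, chr1:161138965-161139214, minus strand: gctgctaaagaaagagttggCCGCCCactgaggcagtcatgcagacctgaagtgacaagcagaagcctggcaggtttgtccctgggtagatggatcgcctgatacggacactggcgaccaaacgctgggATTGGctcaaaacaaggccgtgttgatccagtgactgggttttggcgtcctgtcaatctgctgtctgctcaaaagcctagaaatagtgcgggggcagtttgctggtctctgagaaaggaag
Srebf1, first start, chr10:45519011-45519260, minus strand: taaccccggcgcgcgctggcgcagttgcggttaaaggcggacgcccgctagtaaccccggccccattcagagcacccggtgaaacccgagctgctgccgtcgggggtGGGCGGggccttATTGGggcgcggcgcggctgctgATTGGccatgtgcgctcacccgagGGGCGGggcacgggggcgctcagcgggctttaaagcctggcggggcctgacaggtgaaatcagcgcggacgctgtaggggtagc
Srebf1, second start, chr10:45529165-45529414, minus strand: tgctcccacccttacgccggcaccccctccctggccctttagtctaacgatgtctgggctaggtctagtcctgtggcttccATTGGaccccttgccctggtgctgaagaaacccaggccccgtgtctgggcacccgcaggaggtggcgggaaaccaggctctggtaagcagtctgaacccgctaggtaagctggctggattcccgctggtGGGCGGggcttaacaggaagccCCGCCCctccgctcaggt
In the Thrsp window the CCAAT match began 121 bases before the start and the GGGCGG match 230 bases before it. Promoters of 7 of the 10 genes (Thrsp, Srebf1, Acly, Acss2, Acacb, Me1 and Pnpla3) were matched, with 8 windows of 250 bases before and 50 after a start, and none for Fasn, Acaca and Elovl6. On either strand, CCAAT was in 7 of the 8 windows, all but that of Me1, and in 37.5% of 33469 windows of the same length, while GGGCGG was in 7 of 8, all but that of Acacb, against 33.1%. SREBP-1c and other lipogenic factors are known to bind sterol regulatory elements and E-boxes. The form TCACNCCAC of the sterol regulatory element and the E-box CACGTG were in 0 of the 8 windows. Over all windows the shares were 1.12% and 6.42%, so that 0 of 8 does not set these windows apart. Other forms of the element were not searched. These matches are letters in a window and were not tested as sites.

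Acly (ENSRNOG00000016924, chromosome 10, 88392248 to 88442845, minus strand), ATP citrate lyase, supplies cytosolic acetyl-CoA from citrate. It was at 62.7, 48.5 and 63.3 CPM in WI30min, 48.7, 64.8 and 50.5 CPM in SCS4h, 35.2, 68.7 and 56.5 CPM in HMP1h, and 63.7, 66.4 and 51.3 CPM in HOPE1h. HMP1h livers 1 and 2 were the lowest and the highest of the 12, and all pairs of groups overlapped. No log2 fold change of Acly between a pair of groups was larger than 0.18 ± 0.221 (HOPE1h over HMP1h, edgeR adjusted p = 0.91). Acss2 (ENSRNOG00000018755, chromosome 3, 151032952 to 151075856, plus strand), which makes acetyl-CoA from acetate and is a known SREBP target, was at 22.4, 18.6 and 23.4 CPM in WI30min and 22.7, 24.2 and 23.5 CPM in SCS4h. Its levels were 17.7, 36.0 and 29.4 CPM in HMP1h and 20.8, 20.7 and 16.3 CPM in HOPE1h. All HOPE1h livers were below all SCS4h livers, by a log2 fold change of -0.28 ± 0.217 (edgeR adjusted p = 0.674), and the HMP1h livers overlapped both.

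Me1 (ENSRNOG00000009715, chromosome 8, 94256839 to 94368834, minus strand), cytosolic malic enzyme, makes NADPH for lipogenesis. It was the one gene of the 8 with a negative log2 fold change of perfused over unperfused livers, with 67.6, 34.6 and 36.3 CPM in WI30min, 51.9, 36.7 and 31.8 CPM in SCS4h, 29.6, 26.9 and 29.5 CPM in HMP1h, and 28.4, 26.8 and 30.0 CPM in HOPE1h. All 6 perfused livers (28.6 ± 1.42 CPM, SD, n = 6) were below all 6 unperfused livers (43.1 ± 13.9 CPM), and the perfused livers lay close together. The log2 fold change of perfused over unperfused livers was -0.59 ± 0.172, with an adjusted p of 0.123 in edgeR and 0.0348 in DESeq2. Over the alternatives Me1 stayed between -0.68 and -0.40, with adjusted p from 0.0348 to 0.245 and the smallest difference without WI30min liver 1.

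Acaca and Acacb encode the acetyl-CoA carboxylases ACC1, in the cytosol, and ACC2, at the mitochondrial surface, where its malonyl-CoA is known to restrain fatty acid oxidation. Acaca (ENSRNOG00000034013, chromosome 10, 71536533 to 71719910, plus strand) was at 19.8, 21.6 and 36.6 CPM in WI30min, 19.8, 24.3 and 25.9 CPM in SCS4h, 18.3, 28.1 and 32.2 CPM in HMP1h, and 33.0, 28.0 and 19.3 CPM in HOPE1h. Its groups overlapped throughout, with means of 23.3 to 26.8 CPM. Acacb (ENSRNOG00000000658, chromosome 12, 48127149 to 48238887, minus strand) was at 20.7, 25.7 and 27.7 CPM in WI30min, 30.3, 33.5 and 35.1 CPM in SCS4h, 33.9, 45.9 and 54.1 CPM in HMP1h, and 38.7, 30.6 and 29.0 CPM in HOPE1h. Every WI30min liver was below every liver of the other 3 groups, which overlapped among themselves. The same livers were set apart by 8 blood and neutrophil markers (Hbb and others), which summed to 3520 to 4780 CPM in WI30min, 601 to 1910 CPM in SCS4h, 261 to 2620 CPM in HMP1h and 1150 to 1920 CPM in HOPE1h. Of the 6 markers tested, 5 did not overlap between WI30min and each other group. The shares of all tested genes were 13.0% for SCS4h, 16.0% for HMP1h and 16.2% for HOPE1h. The median log2 fold changes of the 6 markers over WI30min were -1.71, -1.54 and -1.39 in these groups, and 0, 1 and 1 of the 6 were positive. The part of these markers in the Acacb values was not tested. Against WI30min the log2 fold change of Acacb was 0.42 ± 0.182 in SCS4h (edgeR adjusted p = 0.962), 0.85 ± 0.183 in HMP1h (0.093) and 0.41 ± 0.182 in HOPE1h (0.572). Acacb in HMP1h over WI30min had the lowest edgeR adjusted p of any of the genes, and the difference passed in DESeq2 (adjusted p = 0.00516) and in edgeR without HMP1h liver 1 (log2 fold change 1.03, adjusted p = 0.0417).

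Fasn (ENSRNOG00000045636, chromosome 10, 109987735 to 110005901, minus strand) encodes fatty acid synthase, the enzyme that makes palmitate. It was at 12.9, 8.81 and 20.5 CPM in WI30min, 11.1, 10.8 and 14.3 CPM in SCS4h, 13.2, 22.4 and 24.9 CPM in HMP1h, and 22.2, 15.9 and 14.7 CPM in HOPE1h. Each HOPE1h liver was above each SCS4h liver, and HMP1h livers 2 and 3 were the highest of the 12. The log2 fold change over SCS4h was 0.54 ± 0.308 in HOPE1h (edgeR adjusted p = 0.557) and 0.74 ± 0.309 in HMP1h (0.3), and neither passed.

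Among the 3 HMP1h livers, liver 1 lay apart from livers 2 and 3 for most of the genes. HMP1h liver 1 was the lowest of the HMP1h livers for 7 of the 8 genes, all but Me1, and it was the lowest for 37.1% of all tested genes. It was the highest of them for 1 of the 8 genes, Me1, and for 38.5% of all tested genes. HMP1h liver 2 was the highest for 4 of the 8 (Thrsp, Srebf1, Acly and Acss2) and liver 3 for 3 (Fasn, Acaca and Acacb), against 30.1% and 31.4% of all tested genes. The ratio of the highest to the lowest HMP1h liver was 22.3 for Thrsp, 2.04 for Acss2, 1.95 for Acly, 1.91 for Srebf1, 1.88 for Fasn, 1.76 for Acaca and 1.59 for Acacb, and 1.10 for Me1. For Acaca and Acly, HMP1h liver 1 was the lowest liver of the whole series, whereas for Acacb and Srebf1 7 of the 12 livers were below it. The SD of log2 CPM among the HMP1h livers was 2.40 for Thrsp, larger than in 99.7% of tested genes, and 0.0786 for Me1, larger than in 6.28%.

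**Figure D2:**
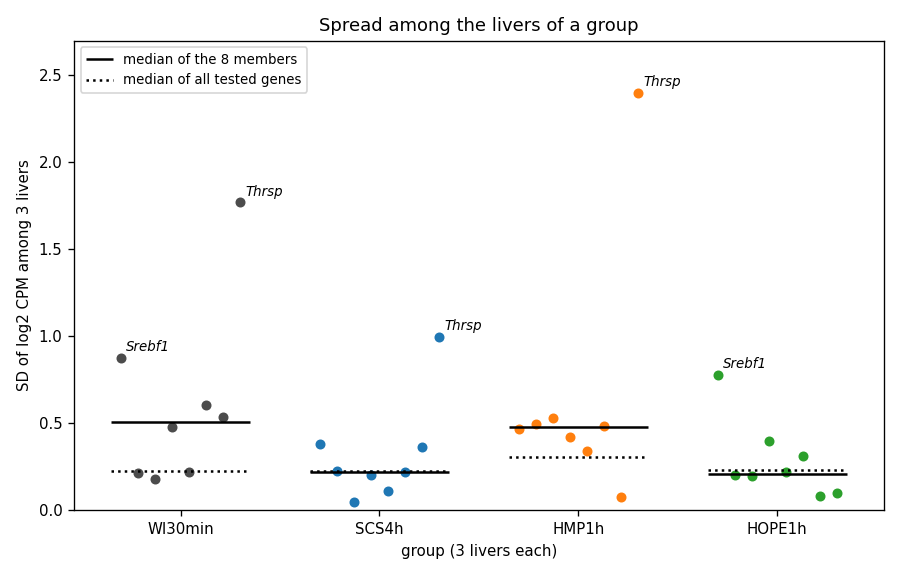
SD of log2 CPM among the 3 livers of each group (vertical axis) for the 8 genes (points), with their median (solid line) and the median of all 13687 tested genes (dotted line), and names for points above 0.7. The median of the 8 genes is 0.508 in WI30min and 0.478 in HMP1h, above the median of all genes, and 0.221 in SCS4h and 0.211 in HOPE1h, close to it.

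HMP1h was not the only group with a wide spread. The median SD of log2 CPM over the 8 genes was 0.508 in WI30min, 0.221 in SCS4h, 0.478 in HMP1h and 0.211 in HOPE1h, beside medians over all tested genes of 0.228, 0.224, 0.307 and 0.232, respectively. Of the 8 genes, 5, 3, 7 and 3 were above the median of all genes in these groups. Without WI30min liver 3, which held the highest WI30min level of Thrsp, Srebf1, Fasn, Acaca, Acacb, Acly and Acss2, the WI30min median was 0.283, and without HMP1h liver 1 the HMP1h median was 0.183. In HOPE1h the spread of Thrsp was small (SD of log2 CPM 0.10, larger than in 16.5% of genes), whereas that of Srebf1 was 0.779, larger than in 92.1%, with HOPE1h liver 3 the lowest. The mean of the 8 centred log2 CPM values was -0.41, -0.55 and 0.33 in WI30min, -0.35, -0.10 and -0.03 in SCS4h, -0.42, 0.71 and 0.57 in HMP1h, and 0.29, 0.13 and -0.17 in HOPE1h. Without Thrsp this mean was -0.24, 0.42 and 0.36 in the HMP1h livers, in the same order.

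No gene of the 8 passed the edgeR test in any of the 7 comparisons. In SCS4h against WI30min 0 of 8 were called by edgeR (0.0% of all tested genes) and 0 by DESeq2 (0.11%), 1 had an unadjusted edgeR p under 0.05 (Acacb; 4.77% of all tested genes), and in 1 the livers of the groups did not overlap (Acacb, higher; 13.0%). In HMP1h against WI30min edgeR called 0 of 8 (0.0%) and DESeq2 1 (Acacb, 2.85%), 3 had an unadjusted p under 0.05 (Acacb, Me1 and Thrsp, 13.8%), and 2 did not overlap (Acacb higher, Me1 lower, 16.0%). In HOPE1h against WI30min both tools called 0 of 8 (0.0% and 0.679%), 2 had an unadjusted p under 0.05 (Acacb and Me1, 8.57%), and 3 did not overlap (Acacb and Thrsp higher, Me1 lower, 16.2%). The median log2 fold change of the 8 genes over WI30min was -0.12 in SCS4h, 0.44 in HMP1h and 0.05 in HOPE1h, beside 0.01, 0.03 and 0.02 over all tested genes. These 3 comparisons share the WI30min livers.

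Against SCS4h, which had the same total time after ischemia, HMP1h gave 0 of 8 called by either tool (0.0% of tested genes in edgeR, 3.16% in DESeq2). The unadjusted p was under 0.05 for 3 (Fasn, Acacb and Thrsp, 14.5%), and 2 did not overlap (Srebf1 higher, Me1 lower, 17.9%). HOPE1h against SCS4h gave 0 of 8 called by either tool (0.0% and 1.02%) and 0 with an unadjusted p under 0.05 (10.9%), while 4 did not overlap (Fasn and Thrsp higher, Acss2 and Me1 lower, 19.2%). The comparison of HOPE1h with HMP1h, which asks what oxygen adds to cold perfusion, gave 0 of 8 called by either tool (0.0% and 0.102%), 2 with an unadjusted p under 0.05 (Acacb and Acss2, both lower in HOPE1h, 7.48%) and 0 that did not overlap (11.1%). The median log2 fold change of HOPE1h over HMP1h was -0.32 for the 8 genes and -0.01 for all tested genes, and 6 of the 8 genes were lower in HOPE1h.

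In perfused against unperfused livers, the comparison with the most livers, edgeR called 0 of 8 (1.02% of all tested genes) and DESeq2 1 (Me1, 5.36%). The unadjusted p was under 0.05 for 4 (Fasn, Acacb and Thrsp with higher means in perfused livers, Me1 lower; 17.7%), and only Me1 did not overlap (1.83%). Thrsp was at 196 ± 153 CPM in perfused and 45.8 ± 38.5 CPM in unperfused livers (SD, n = 6), a log2 fold change of 2.04 ± 0.693 (edgeR adjusted p = 0.171). Acacb was at 38.7 ± 9.72 and 28.8 ± 5.30 CPM (0.42 ± 0.128, adjusted p = 0.133) and Fasn at 18.9 ± 4.86 and 13.1 ± 4.09 CPM (0.53 ± 0.217, adjusted p = 0.24). Cold storage lasted 4 h in SCS4h and was absent in WI30min, so that the unperfused side joins livers of unlike history.

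**Figure D3:**
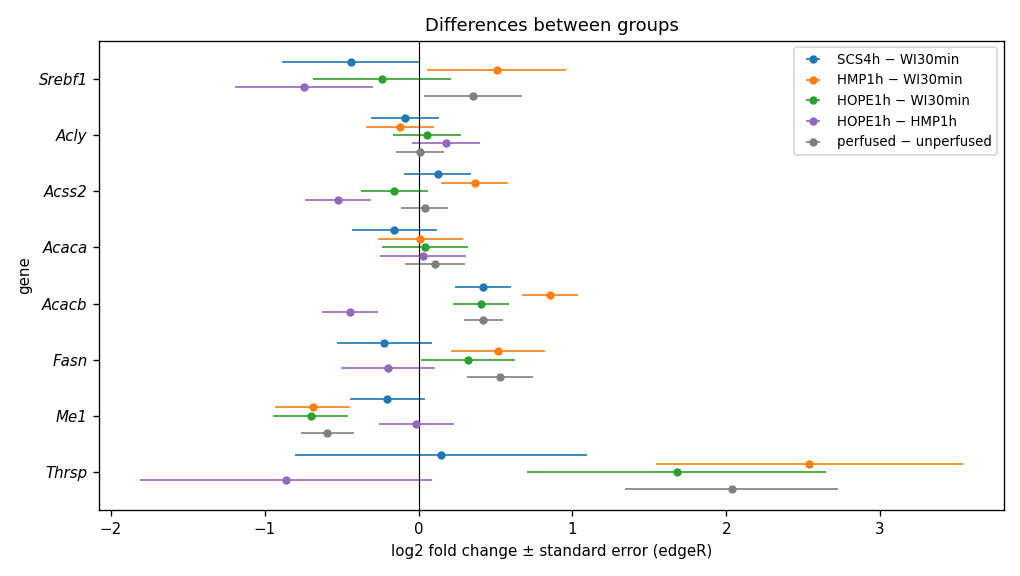
Log2 fold change with its standard error (edgeR, horizontal axis) of each of the 8 genes (vertical axis) in 5 comparisons, coded by colour, where a value right of 0 is higher in the first-named group. Thrsp has the widest errors and, except in SCS4h over WI30min (0.15 ± 0.951), the largest differences. Acacb lies right of 0 in each group compared with WI30min, and Me1 lies left of 0.

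Genes around the pathway were described from lists by role. Of 18 tested regulators of lipogenic transcription and of acetyl-CoA carboxylase, edgeR called 0 in perfused against unperfused livers (1.02% of all tested genes) and DESeq2 1 (5.36% of all; Nr1h3, the nuclear receptor LXRα that activates Srebf1, adjusted p = 0.0142). Nr1h3 was at 112 ± 13.6 CPM in perfused and 146 ± 16.6 CPM in unperfused livers (edgeR adjusted p = 0.0996). Mlxipl, the gene of ChREBP, was listed too but was not found under that name, so that its level is not known here. Insig1, which retains SREBP in the endoplasmic reticulum and is itself an SREBP target, was at 101, 541 and 284 CPM in the HMP1h livers, in the same order as Thrsp. Across all 12 livers it ranged from 53.3 CPM in HOPE1h liver 2 to 541 CPM, and WI30min liver 1 had 304 CPM of it with the lowest level of Thrsp. Of the 14 tested genes for the supply of carbon and NADPH, edgeR called 1 in the same comparison, beside 1.02% of all tested genes, and DESeq2 2, beside 5.36%. The edgeR call was Mpc2, a subunit of the mitochondrial pyruvate carrier, which fell in perfused livers (log2 fold change -0.80 ± 0.152, edgeR adjusted p = 0.0409). Pklr, liver pyruvate kinase, was at 35.8, 61.7 and 43.4 CPM in HMP1h.

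Among 11 tested genes of desaturation and other elongation, edgeR called 1 (1.02% of all tested genes) and DESeq2 4 (5.36%) in perfused against unperfused livers. The edgeR call, Hacd2, a dehydratase of the elongation cycle, fell in perfused livers (-0.54 ± 0.107, edgeR adjusted p = 0.0432). Scd, the stearoyl-CoA desaturase that follows Fasn in the pathway, was at 3.20, 58.3 and 22.4 CPM in HMP1h and 12.2, 24.3 and 3.57 CPM in HOPE1h, against 3.27 to 7.86 CPM in the 6 unperfused livers. Its log2 fold change in perfused livers was 2.03 ± 0.594, with an adjusted p of 0.124 in edgeR and 0.0356 in DESeq2. Of 17 tested genes of triglyceride assembly and the lipid droplet, edgeR called 1 (1.02% of all tested genes) and DESeq2 4 (5.36%). The edgeR call, Mttp, which loads fat onto lipoproteins, fell in perfused livers (-0.45 ± 0.0930, edgeR adjusted p = 0.0462). Lpin1, a phosphatidate phosphatase, was at 18.7, 130 and 138 CPM in the HMP1h livers, and Dgat2, which makes triglyceride, at 239, 621 and 542 CPM. Other genes of this list had another order: Plin2, a lipid droplet coat protein, was at 224, 164 and 103 CPM in HMP1h, highest in liver 1, and Gpam, which starts triglyceride assembly, at 51.0, 141 and 40.1 CPM, lowest in liver 3. Of 17 tested genes of cholesterol synthesis and uptake, edgeR called 0 (1.02% of all tested genes) and DESeq2 3 (5.36%), and 4 had an unadjusted p under 0.05 in edgeR (17.7%).

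Of 14 tested genes induced by fasting, 7 had higher and 7 lower fitted levels in perfused livers, and edgeR called 2 (1.02% of all tested genes) and DESeq2 4 (5.36%). The edgeR calls, both targets of the fasting receptor PPARα, fell in perfused livers: Cyp4a1 (-0.90 ± 0.149, edgeR adjusted p = 0.0273) and Acot1 (-2.86 ± 0.587, adjusted p = 0.0457). Acot1 was at 7.43, 1.06 and 1.78 CPM in HMP1h and 4.67, 7.41 and 8.13 CPM in HOPE1h, against 9.07 to 73.8 CPM in unperfused livers. Cpt1a, the gate of fatty acid oxidation that malonyl-CoA blocks, was at 651, 456 and 715 CPM in HMP1h, below the 909 to 1170 CPM of the other 9 livers. Its log2 fold change in HMP1h was -0.81 ± 0.178 over WI30min (adjusted p = 0.0975 in edgeR, 0.00117 in DESeq2). Over SCS4h it was -0.75 ± 0.178 (0.103 and 0.0045). In HOPE1h over WI30min it was -0.08 ± 0.177 (0.923 and 0.915). Perfused against unperfused, which joins HMP1h and HOPE1h, gave an adjusted p of 0.131 in edgeR and 0.0244 in DESeq2. The 5 edgeR calls (Mpc2, Hacd2, Mttp, Cyp4a1 and Acot1) kept their direction with each liver left out in turn, but passed in only 4, 1, 1, 4 and 2 of these 12 fits, respectively. The number of genes called in all fell from 140 to 0 without HOPE1h liver 1 or HOPE1h liver 3, to 2 without SCS4h liver 2, to 4 without SCS4h liver 1 and to 6 without WI30min liver 1. It was 23 without WI30min liver 2, 36 without SCS4h liver 3, 44 without HMP1h liver 2 and 64 without HOPE1h liver 2.

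**Figure D4:**
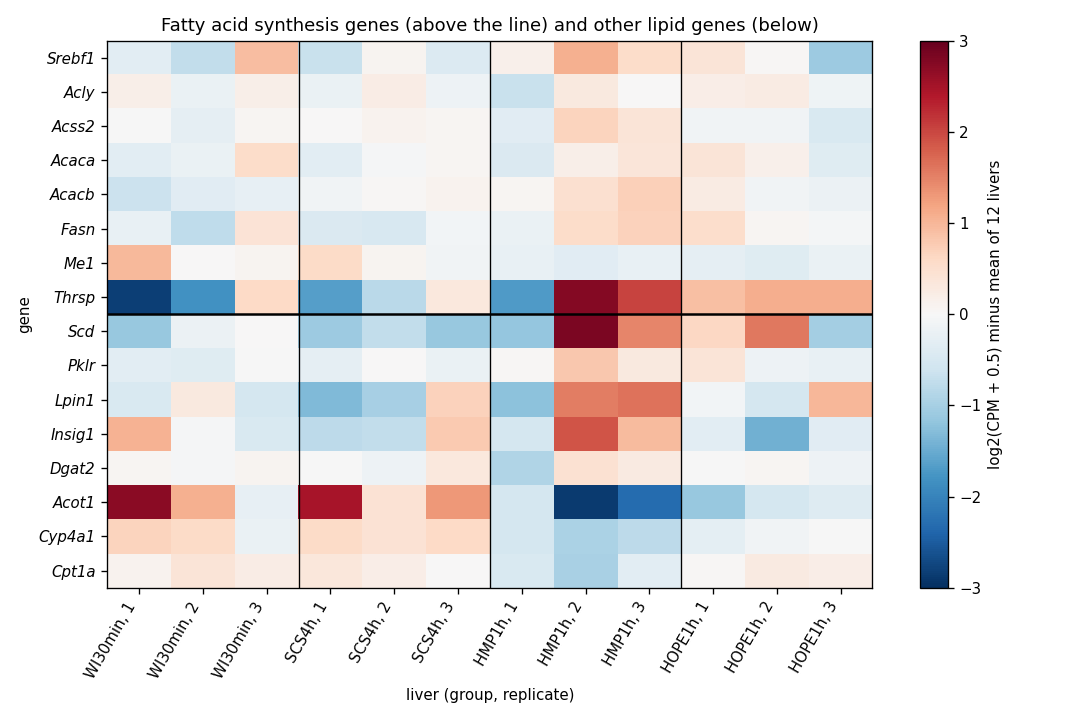
Heat map of log2(CPM + 0.5) minus the mean of the 12 livers (colour), for the 8 genes above the line and 8 other lipid genes, picked after their values were seen, below it (rows), in each liver (columns, by group and replicate). Thrsp, Scd and Lpin1 are low in HMP1h liver 1 and high in HMP1h livers 2 and 3, and Acot1 is low in HMP1h livers 2 and 3.

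Other measures moved with the lower level of these genes in HMP1h liver 1. That liver had the highest mitochondrial share and the raised sums of non-parenchymal markers given above, and the highest blood and neutrophil marker sum of its group (2620 CPM, with 261 CPM in the lowest HMP1h liver), though below the 3520 to 4780 CPM of the WI30min livers. HOPE1h liver 3, with raised sums as well, was the lowest HOPE1h liver for Srebf1, Fasn, Acaca, Acacb, Acly and Acss2, but not for Thrsp (145 CPM) or Me1. Their part in the result was not tested. Clock genes also differed between livers: Dbp, a clock output gene, was at 8.12, 7.19 and 84.1 CPM in WI30min and 7.88, 13.6 and 84.7 CPM in HMP1h, and Arntl, which peaks in the opposite phase, at 32.2, 37.9 and 10.6 CPM and at 36.2, 34.0 and 13.0 CPM. The livers with low Dbp included WI30min livers 1 and 2 and HMP1h liver 1, in which Thrsp was at 9.19 to 20.6 CPM, and also HMP1h liver 2, in which Thrsp was at 460 CPM. The part of clock phase in the result was not tested.

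Across the 12 livers, tested genes outside the list whose log2 CPM was among the most like the mean of the 8 genes were Suz12 (Pearson r = 0.934), Qpctl (0.916), C9 (0.912), Ppp2r5e (0.902), LOC680406 (0.901), Slc20a2 (0.898), Lats1 (0.895), Tas1r2 (0.893) and Phtf1 (0.891). C9, which encodes a complement protein secreted by hepatocytes, was at 785, 1270 and 1370 CPM in the HMP1h livers. The genes least like it were Aqp3 (-0.915), Rtn4 (-0.896), an unnamed gene model (-0.887), AABR07007032.1 (-0.879) and Acot2 (-0.879). Aqp3, an aquaporin that also passes glycerol, averaged 8.68 CPM in WI30min, 7.21 CPM in SCS4h, 1.08 CPM in HMP1h and 2.74 CPM in HOPE1h, and Acot2, like Acot1 an acyl-CoA thioesterase, averaged 125, 106, 47.7 and 60.6 CPM. The median r over all tested genes outside the list was -0.0296 and its 99th percentile 0.771. These genes were picked as the extremes of r over the same 12 livers, which include the widely spread HMP1h livers. Over the livers outside HMP1h, r ran from 0.73 (Tas1r2) to 0.928 (Qpctl) for the genes most like the mean. For those least like it, r ran from -0.761 (AABR07007032.1) to -0.915 (Rtn4). Thrsp weighs most in the mean of the 8 genes, with an SD of log2 CPM of 1.74 over the 12 livers against 0.676 for Srebf1, the next widest.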

How the data were processed

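Liver RNA of 12 rats (4 groups of 3) was sequenced. Reads were aligned by the authors with Hisat2, to Rnor_6.0 per the submitters' processing notes, and assembled with StringTie. The sources used here name no counting tool. The authors deposited raw counts per gene for each liver, which were used in every test, and FPKM, which the authors scaled by length and depth and which served here only for levels between genes. The deposited fold changes and p-values of the authors' own comparisons were not used. Each column was assigned to a liver through its name, and 0 were left over.

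Genes passing filterByExpr (13687 of 33744) were normalized by TMM and tested with edgeR 4.0.16 (quasi-likelihood F test, R 4.3.3), all livers entering 1 model of group means (residual degrees of freedom 8, prior 3.86, common dispersion 0.0733). Adjusted p-values are Benjamini-Hochberg over all tested genes, and a gene was called under 0.05. Standard errors are the log2 fold change divided by the root of F. SDs and centred means use log2 CPM with a prior count of 2. At these depths (15262961 to 18343167 counts) the spread between livers, rather than counting error, sets the standard errors of the 8 tested genes. Within single groups the spread can be as small as counting error, as for Acss2 in SCS4h (404, 402 and 359 counts). The p-values measure only the spread between these livers. DESeq2 1.42.0, RLE normalization, no filter, another prior count, a fit of the compared groups alone, a block for replicate number and each liver left out in turn were alternatives, and leaving out HMP1h liver 1 and HOPE1h liver 3 together was added after seeing the data. The pipeline was tested on simulated data.

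The genes and the lists around them were chosen with earlier results of these data known. Named beside the 10 genes were examples of each list fixed by role (those printed were picked from them after their values were seen), up to 3 called genes per list and comparison, and the 10 genes most and 5 least like the mean of the tested genes by Pearson r. Some of these genes are not reported here. Of the regulators, 18 of 19 listed were in the table, all but Mlxipl. Promoter sequences are RefSeq's (GRCr8). Figures were drawn with matplotlib.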

Additional observations from a re-analysis of the deposited data

How the results depend on the processing

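Of 56 differences of single genes (8 genes in 7 comparisons), the 1000 values under alternatives kept direction and side of the threshold in 948, changed sign by at most 1 standard error in 38 (over 12 differences, among them Thrsp in SCS4h against WI30min, from -0.544 to 1.77 with 1 liver left out), turned by over 1 standard error in 10 and passed the threshold in 4 (Acacb in HMP1h against WI30min, 3 times, and Me1 in perfused against unperfused livers under DESeq2). DESeq2 called 15, 390, 93, 433, 140, 14 and 734 genes in SCS4h, HMP1h and HOPE1h against WI30min, HMP1h and HOPE1h against SCS4h, HOPE1h against HMP1h, and perfused against unperfused livers, where edgeR called 0 in each but the last (140), and it called 1 of the 8 genes in the second and 1 in the last. Without the filter edgeR called 1, 19, 8 and 19 genes in the first 4 comparisons, and with only the groups compared 2 in HOPE1h against WI30min and 5 in HOPE1h against SCS4h. The replicate numbers did not pair the livers (18 correlations of deviations from -0.189 to 0.143, 1 over 0.1). With the replicate number as a block edgeR called 1 gene in SCS4h against WI30min, 1 in HOPE1h against WI30min and 66 in perfused against unperfused livers, and 0 of the 8 genes. Without HMP1h liver 1 and HOPE1h liver 3 together it called 46, 1, 22, 1 and 61 genes in HMP1h and HOPE1h against WI30min, HMP1h and HOPE1h against SCS4h, and perfused against unperfused livers, with 1 of the 8 genes (Acacb) in the first, and the log2 fold change of Acly in HMP1h became 0.115 over WI30min and 0.214 over SCS4h. With 1 liver left out in turn, genes called ranged from 0 to 1 in SCS4h, 0 to 29 in HMP1h and 0 to 4 in HOPE1h against WI30min, 0 to 36 in HMP1h and 0 to 1 in HOPE1h against SCS4h, 0 to 2 in HOPE1h against HMP1h and 0 to 166 in perfused against unperfused livers, and calls among the 8 genes from 0 to 1 in HMP1h against WI30min (Acacb, without HMP1h liver 1). In SCS4h over WI30min the log2 fold change ranged from -0.431 to 0.177 for Me1, -0.739 to 0.225 for Srebf1, -0.322 to 0.173 for Acaca and -0.469 to 0.150 for Fasn, and in HOPE1h over WI30min from -0.573 to 0.424 for Srebf1. For Acly it ranged from -0.348 to 0.114 in HMP1h over WI30min, -0.257 to 0.214 in HMP1h over SCS4h and -0.0725 to 0.401 in HOPE1h over HMP1h. The turns came without WI30min liver 1 for Me1, without HMP1h liver 1 for Acly and without WI30min liver 3 for the others. The median SD of log2 CPM of the 8 genes ranged from 0.283 to 0.546 in WI30min and 0.183 to 0.600 in HMP1h. The cause of these changes was not tested. With 3 livers per group, the spread of Thrsp leaves differences of several-fold below the threshold, and the counts of Elovl6 and Pnpla3 are too low for any comparison.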
